A study of Mus musculus with 12 samples.

Results

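Glycolysis and the response to low oxygen were followed through 36 genes of mouse Th17 cells, a class of helper T cell that makes interleukin-17. The 36 were chosen by name, by matching a fixed list to the gene identifiers of the deposited read count table, and were found among its 35275 identifiers. Of these, 23 act in glucose uptake, glycolysis and the fate of pyruvate (called the glycolysis genes), and 13 are known to be induced by hypoxia (called the hypoxia genes). Several glycolysis genes, such as Slc2a1, Pgk1, Ldha and Pdk1, are induced by hypoxia as well. The rule matches names and uses no measured value, but the list was chosen with earlier results of these data known.

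All cells were wild-type naive CD4+ T cells that had been grown for 72 h on plates carrying antibodies to CD3 and CD28, in medium with TGF-B, IL-6 and antibodies against IFN-g and IL-4. The 4 groups, with 3 libraries each, were untreated cells, cells given dexamethasone (Dex, a synthetic glucocorticoid), cells given interleukin-1 beta (IL-1B) and cells given both. Each agent was present for the last 4 h. The labels name no doses, mouse strain, age or sex, and do not say whether the 3 libraries of a group came from separate mice or cultures. Libraries are named here by group and replicate number, such as untreated 1. Total counts ran from 16904106 to 30445734 per library, and the fewest reads of any of the 36 genes in any library was 61.

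Glycolysis turns glucose into pyruvate, which activated T cells largely reduce to lactate and export. The hypoxia-inducible factor (HIF) is a pair of proteins, an oxygen-regulated alpha subunit (Hif1a or Epas1) and Arnt. Prolyl hydroxylases of the Egln family mark the alpha subunit for destruction by the Vhl ligase while oxygen is plentiful, and without that mark HIF activates many glycolytic genes together with genes such as Bnip3, Egln3 and Vegfa. Hif1a and glycolysis are both known to promote the differentiation of Th17 cells.

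HIF binds a short core, ACGTG or GCGTG, so the promoters of the genes were searched for it on both strands. RefSeq promoters of GRCm38.p6, each running from 250 bases before to 50 bases after a start site, were found for 33 of the 36 genes, 51 promoters in all. Slc2a3, Bnip3l and Ndrg1 were not among them, and Ero1l was matched by its synonym. The core was present in at least 1 promoter of 31 of the 33 genes (93.9%), all but Gpi1 and Tpi1, against 67.3% of the 10172 tested genes with a promoter and 46.7% of all 27025 genes with one. Counted per promoter, where overlapping promoters of a gene each count, the shares were 78.4% of 51, 61.4% of 12954 and 43.8% of 32851. The palindrome CACGTG, the E-box bound by Myc and related factors, holds the core on both strands and counts as 2 core sites. It was present in 5 of the 33 genes (15.2%), Pfkm, Pfkfb3, Ldha, Slc16a1 and Bnip3, against 11.7% of tested genes, and counted per promoter the shares were 9.8% of 51 and 9.93% of 12954. A 10-base NF-kB consensus was found in 2 genes (6.06%), Ero1l and Vegfa, against 6.21% of tested genes. The list was chosen to hold genes known to be induced by hypoxia, so the choice itself favours a higher share with the HIF core. A match is a description of the letters and not a bound site.

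Promoters of 4 genes, picked by their values, are shown because these genes are described in detail further on. Hk2 and Slc16a1 were the genes that rose with IL-1B, Egln3 was the most abundant hypoxia gene per length, and Ankrd37 had the lowest log2 change of the 36 with IL-1B. They lie at chr6:82774405-82774704 (minus strand), chr3:104638414-104638713 (plus strand), chr12:54203825-54204124 (minus strand) and chr8:45999801-46000100 (minus strand) and hold 2, 5, 1 and 4 core sites. Each is written 5′ to 3′ on the strand of its gene, with core sites of either strand in capitals (CACGT and CACGC are the core read on the other strand).
Hk2: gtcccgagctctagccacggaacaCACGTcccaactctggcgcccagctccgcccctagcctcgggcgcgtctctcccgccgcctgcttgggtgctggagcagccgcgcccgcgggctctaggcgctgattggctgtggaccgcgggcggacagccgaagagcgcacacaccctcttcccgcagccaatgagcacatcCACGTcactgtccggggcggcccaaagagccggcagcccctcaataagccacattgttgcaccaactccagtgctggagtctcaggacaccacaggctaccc
Slc16a1: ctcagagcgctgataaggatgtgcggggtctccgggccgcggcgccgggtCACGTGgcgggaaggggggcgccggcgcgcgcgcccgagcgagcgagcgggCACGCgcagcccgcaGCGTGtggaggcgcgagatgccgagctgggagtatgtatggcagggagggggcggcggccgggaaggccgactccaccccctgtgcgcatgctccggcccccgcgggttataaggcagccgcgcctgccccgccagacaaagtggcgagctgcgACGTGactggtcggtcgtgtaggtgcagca
Egln3: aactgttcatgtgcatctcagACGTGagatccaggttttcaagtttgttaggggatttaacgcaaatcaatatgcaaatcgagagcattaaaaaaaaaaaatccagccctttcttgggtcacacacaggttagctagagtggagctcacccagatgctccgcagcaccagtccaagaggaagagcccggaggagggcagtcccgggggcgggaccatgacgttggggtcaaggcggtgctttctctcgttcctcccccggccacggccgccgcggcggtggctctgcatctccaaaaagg
Ankrd37: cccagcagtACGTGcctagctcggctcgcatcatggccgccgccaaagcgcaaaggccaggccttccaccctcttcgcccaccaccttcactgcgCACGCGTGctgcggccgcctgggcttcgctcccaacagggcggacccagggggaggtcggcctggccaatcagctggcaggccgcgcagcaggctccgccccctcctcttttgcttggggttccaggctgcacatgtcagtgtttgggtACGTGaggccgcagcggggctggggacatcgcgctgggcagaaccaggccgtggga
The Slc16a1 promoter holds an E-box among its sites and the other 3 hold none.

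A pair of libraries stood apart as low in these genes. Normalised read counts are given as CPM, the count over the TMM-scaled library size. Relative to each gene's mean log2 CPM over the 12 libraries, the median of the 13 hypoxia genes was -0.52 in untreated 1 and -0.47 in Dex+IL-1B 1, and between -0.12 and 0.40 in the other 10, with Dex 3 the highest. Untreated 1 had the lowest value of its group for 34 of the 36 genes, all 14 glycolytic enzymes among them, and Dex+IL-1B 1 for all 13 hypoxia genes but 8 of 14 glycolytic enzymes. A separate list of 38 further hypoxia-induced genes showed the same pair as lowest, at -0.45 and -0.32. The median over all 13821 tested genes stayed between -0.02 and 0.02. IL-1B 2 was the highest of the 12 libraries for Hk2, Aldoa, Gapdh, Pgk1, Eno1, Pkm, Ldha and Slc16a1. It was the lowest of its group for 4 of the 14 glycolytic enzymes. Genes that overlap ribosomal RNA repeats summed to 18550 CPM in Dex+IL-1B 1 and 14036 in IL-1B 2, and to between 2328 and 5644 in the other 10, untreated 1 included. All 6 B cell markers were detected in every library, with a summed level of 110 to 175 CPM in the untreated group, highest in untreated 1, 84.3 to 104 with Dex, 84.7 to 97.5 with IL-1B and 85.6 to 94.9 with both. The markers of the labelled cells were present, with Cd4 at 445 to 607 and Il17a, the cytokine that defines Th17 cells, at 13.7 to 129.9 mean CPM across groups. Of the 7 myeloid markers, Lyz2, Csf1r, Adgre1, Cd14 and Itgax were each at 0 in some libraries and at most at 0.299 CPM in any. Cd68 stood at 2.02 to 3.58 CPM, and Itgam was detected in every library and highest, at 3.33 CPM, in untreated 1. The 7 summed to 3.32 to 5.74 CPM in untreated cells, 3.51 to 4.32 with Dex, 3.10 to 3.92 with IL-1B and 2.40 to 4.17 with both. Markers of CD8 or NK cells summed to 15.2 to 21.9 CPM over the 12 libraries. Those of gamma-delta T cells summed to 1.16 to 3.25 CPM and erythroid ones to 0.431 to 2.27 CPM. With both agents against untreated, 2 of the 4 tested CD8 or NK markers were called higher and 2 lower, against 18.2% of tested genes called. What part these differences have in the results was not tested, and fewer cells of a type and less RNA per cell cannot be told apart in bulk RNA.

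**Figure D1:**
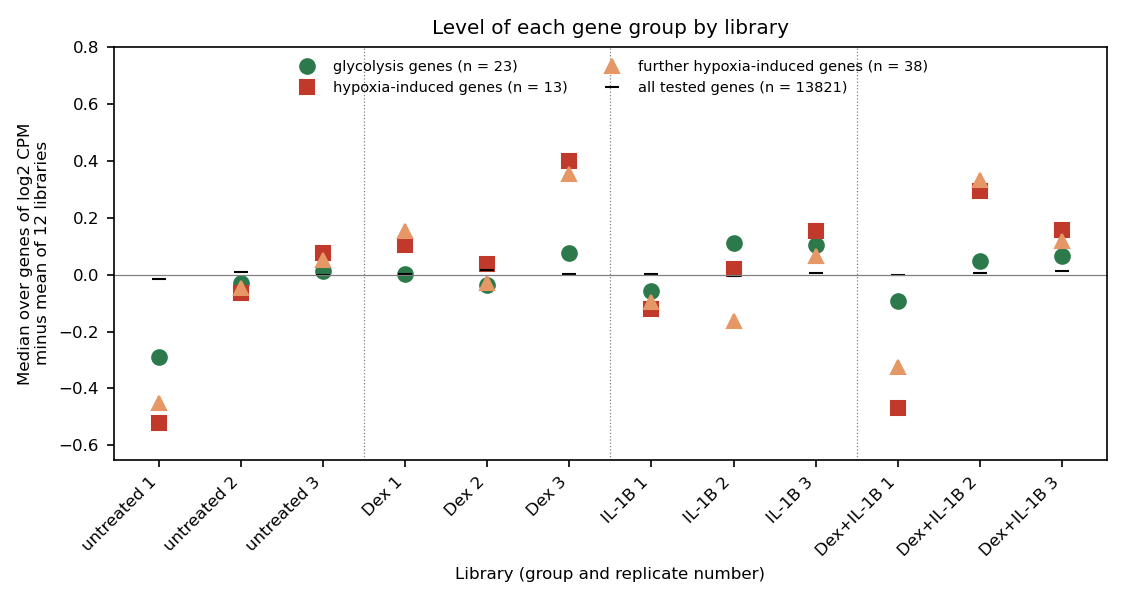
Median over the genes of a list of log2 CPM minus the gene's mean over 12 libraries (vertical axis), for each library (horizontal axis); circles are 23 glycolysis genes, squares 13 hypoxia genes, triangles 38 further hypoxia-induced genes and dashes all 13821 tested genes. The squares lie at -0.52 in untreated 1 and -0.47 in Dex+IL-1B 1, below the other 10 libraries.

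The spread within groups differed between the 2 kinds of gene. The SD of log2 CPM within groups had a median of 0.39 over the hypoxia genes and 0.16 over the glycolysis genes, against 0.19 over all tested genes. Ndrg1 (0.57), Ankrd37 (0.57) and the glucose transporter Slc2a3 (0.53) varied most between replicates, and Egln3 differed 2.45-fold between the lowest and the highest untreated library. Hk1, with an SD of 0.13, varied 1.27-fold over all 12 libraries. The precision of a comparison was therefore lower for the hypoxia genes, whose standard errors reached 0.40 on the log2 scale.

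**Figure D2:**
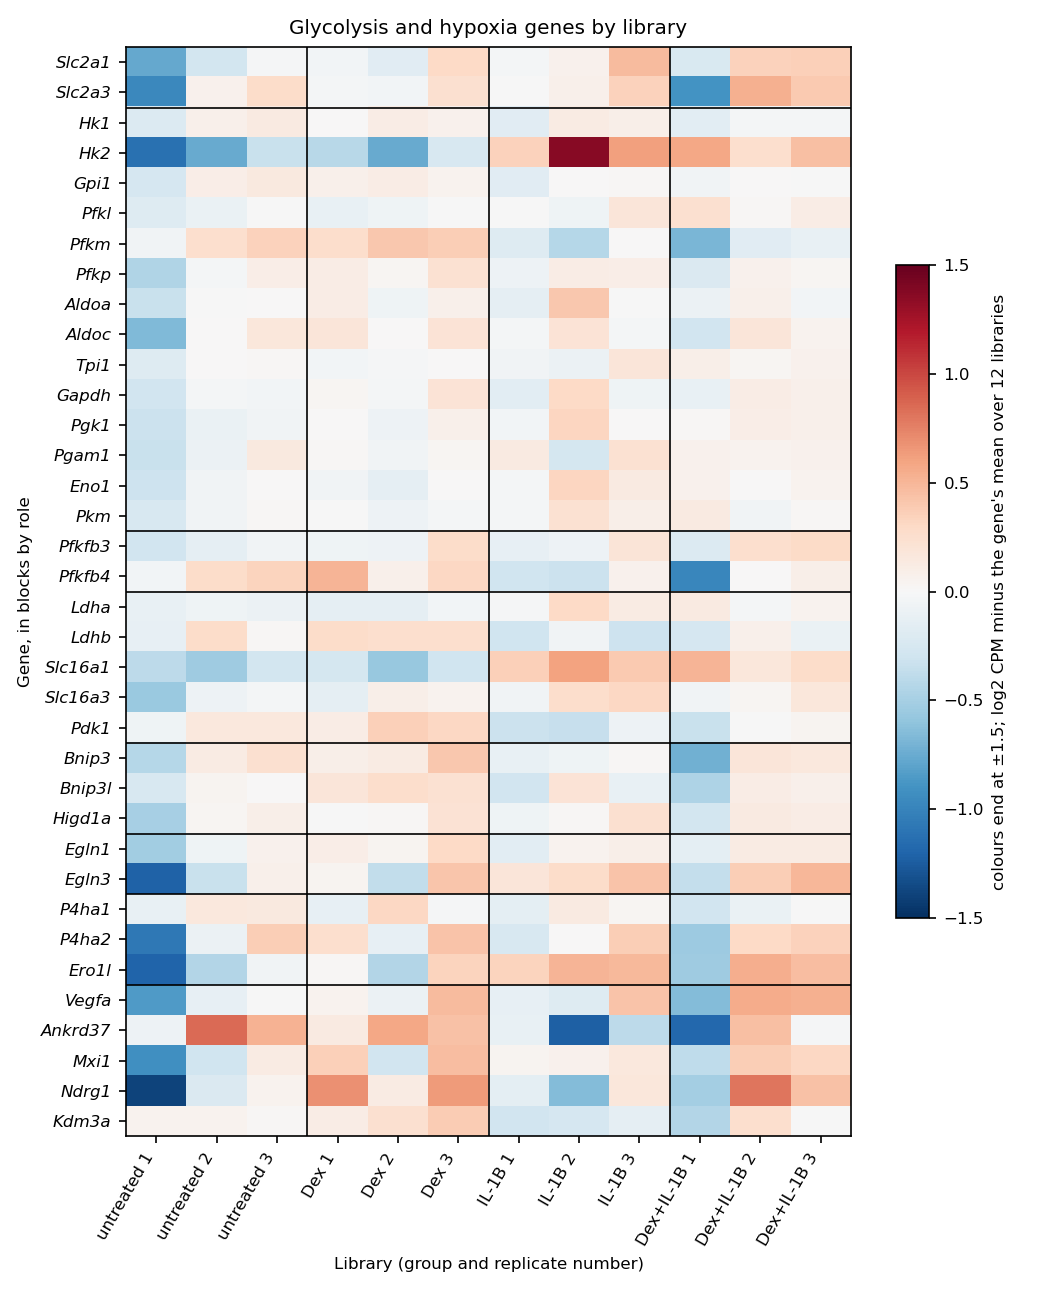
Log2 CPM of each of the 36 genes minus its mean over 12 libraries (colour), with genes in blocks by role (vertical axis) and libraries by group (horizontal axis). Untreated 1 and Dex+IL-1B 1 are low in most hypoxia genes, and Hk2 and Slc16a1 are higher in all 6 libraries with IL-1B than in the other 6.

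The later enzymes of glycolysis dominated the set. On a per-length scale (RPKM, CPM divided by the exon length in kilobases), the untreated means were 1140 ± 111 for Gapdh, 1125 ± 109 for Pgk1, 1003 ± 90.0 for Pkm and 837 ± 14.4 for Ldha (SD, n = 3). Gapdh and Pgk1 differed by less than their SDs, while Pgk1 and Pkm differed by slightly more than either SD. The length takes in every annotated exon, 4133 bases for Gapdh and 2244 for Pgk1, so the order of genes depends on the annotation. Aldoa (700 ± 89.8), Eno1 (583 ± 64.8) and Tpi1 (492 ± 38.3) followed. Egln3, at 194 ± 79.9, was the highest hypoxia gene, and Pfkfb4, at 2.79 ± 0.38, the lowest of the 36. The 36 genes together held 2.57% of all counts in untreated 1 and 2.85% in Dex+IL-1B 1, and 2.94% to 3.36% in the other 10 libraries. Several of the abundant enzymes, Gapdh, Eno1, Ldha and Aldoa among them, have near-identical processed copies in the mouse genome, so their counts carry that uncertainty.

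Most of the 36 genes did not pass the test in any comparison. No gene of the 36 was called with Dex alone, IL-1B raised Hk2 and Slc16a1, and both agents together raised the same pair, relative to untreated cells and relative to Dex, and lowered Pfkm. Tests were edgeR's quasi-likelihood test over all 13821 genes with Benjamini-Hochberg adjustment, with the call set at an adjusted p under 0.05. The background was 0.535% of tested genes called with Dex, against 0 of 36. For IL-1B against untreated it was 21.4%, of which 11.9% higher and 9.51% lower, against 2 and 0 of 36. With both agents against untreated, 18.2% of tested genes were called, against 3 of 36, and with both against Dex 13.6%, against 3 of 36. Both against IL-1B alone gave 0.275% of tested genes and 0 of 36. No comparison thus had a larger share of calls among the 36 than over all tested genes. With Dex alone and with both against IL-1B, so few tested genes were called that 0 of 36 says little about the list. Comparisons with a common control group share its 3 libraries.

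Dex alone gave no call among the 36, with edgeR, DESeq2 or limma-voom. At an unadjusted p under 0.05 there were 2, Ndrg1 and Egln1, and 9.78% of all tested genes. The log2 change was above 0 for 33 of 36, against 49.9% of tested genes, and the median was 0.19, against 0.00 over all. That median was 0.04 without untreated 1, the library low in 34 of the 36 genes, and 24 were then above 0. The groups of libraries did not overlap, with Dex higher, for 4 genes (Gapdh, Bnip3l, Ndrg1 and Kdm3a), against 9.76% of tested genes.

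**Figure D3:**
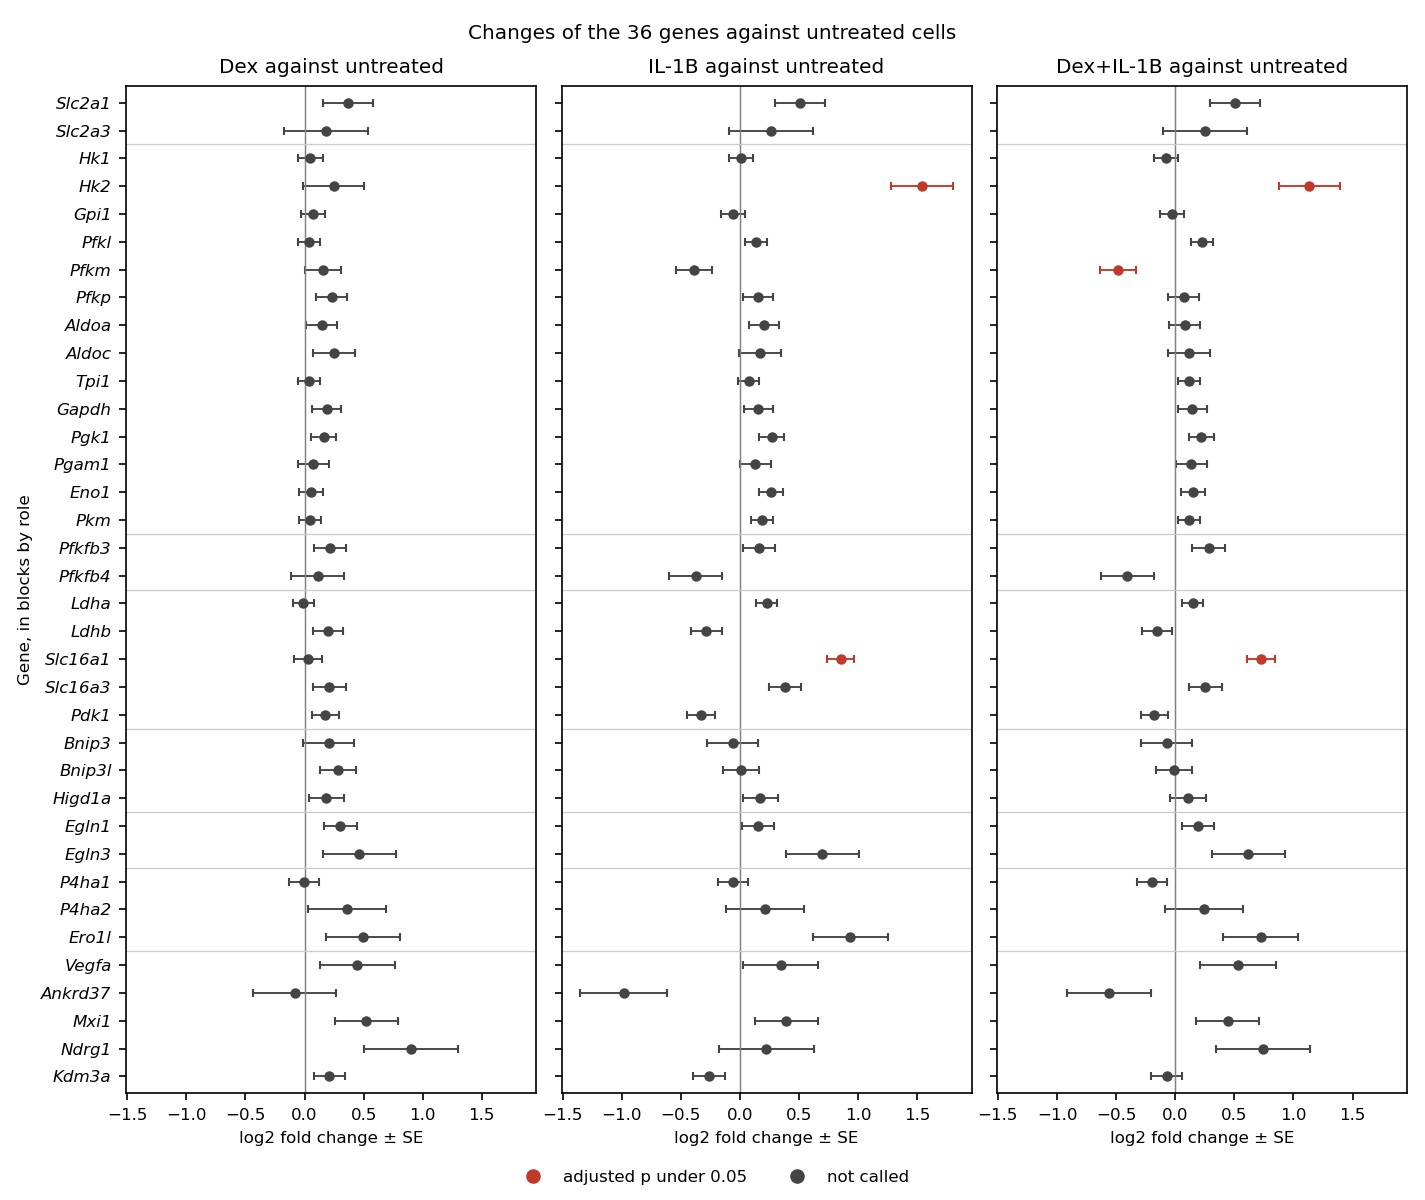
Log2 fold change against untreated cells of each of the 36 genes, with bars of ± 1 SE, for Dex, IL-1B and both agents (left to right), n = 3 libraries per group; red points have an adjusted p under 0.05. Hk2 at 1.54 and 1.13 and Slc16a1 at 0.85 and 0.72 stand to the right in the IL-1B and Dex+IL-1B panels, and Pfkm at -0.48 to the left in the latter.

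With IL-1B against untreated, 13 of the 36 genes had an unadjusted p under 0.05, against 35.0% of tested genes. The log2 change was above 0 for 27 of them, against 49.5%, and for 20 without untreated 1. The libraries did not overlap for 6 genes with IL-1B higher (Hk2, Slc16a1, Pgk1, Ldha, Egln3 and Ero1l) and for 3 with IL-1B lower (Pdk1, Ankrd37 and Kdm3a), against 20.2% and 18.9% of tested genes.

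On average the 2 glucose transporters were higher in each treated group, Slc2a3 only with untreated 1 included, and neither passed the test. Slc2a1, the basal transporter GLUT1, read 161, 227 and 270 CPM in untreated 1, 2 and 3. It stood at 266, 244 and 337 CPM with Dex, at 268, 287 and 382 with IL-1B and at 233, 347 and 351 with both. The groups overlapped, with untreated 1 the lowest library of the 12. The log2 change was 0.37 ± 0.21 with Dex (adjusted p = 0.646), 0.51 ± 0.21 with IL-1B (adjusted p = 0.104) and 0.50 ± 0.21 with both (adjusted p = 0.119). Without untreated 1 these were 0.18, 0.33 and 0.32, and none passed. Over all alternatives the adjusted p ran from 0.258 to 1.0, from 0.0131 to 0.328 and from 0.0160 to 0.358, with 1 alternative calling the gene with IL-1B and with both. An antisense gene, Gm12868, overlaps exons of Slc2a1, and its reads could not be told apart. Slc2a3, the high-affinity transporter GLUT3, had group means of 529 ± 209, 599 ± 67.7, 635 ± 82.8 and 631 ± 282 CPM in untreated, Dex, IL-1B and both (SD, n = 3), and untreated 1 and Dex+IL-1B 1 read 294 and 308 CPM. Untreated 2 and 3 read 601 and 693 CPM. Without untreated 1, only 1 of the 2 transporters, Slc2a1, stayed above 0 in each comparison with untreated.

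Of the 14 glycolytic enzymes, IL-1B raised Hk2, the inducible hexokinase that commits glucose to the cell by phosphorylating it. Hk2 (ENSMUSG00000000628, chromosome 6, 82725025 to 82774454, minus strand, GRCm38) read 152, 196 and 263 CPM in untreated 1, 2 and 3 and 248, 195 and 281 CPM with Dex. It read 419, 853 and 505 CPM with IL-1B 1, 2 and 3, and 495, 393 and 454 CPM with both. Every library with IL-1B was above every library without it, and IL-1B 2 was far above the other 2 of its group. The rise with IL-1B was 2.91-fold (log2 1.54 ± 0.26, adjusted p = 0.00232), and without IL-1B 2 the log2 change was 1.19 (adjusted p = 0.00619). With both agents the rise was 2.19-fold over untreated cells (1.13 ± 0.26, adjusted p = 0.0109). Against Dex alone it was 1.85-fold (0.89 ± 0.26, adjusted p = 0.0406). The last of these calls was lost in 8 of the alternatives, without Dex+IL-1B 1 (adjusted p = 0.125) and without Dex 2 (0.139) among them, and over all alternatives the adjusted p ran from 0.00307 to 0.139. Adding Dex to IL-1B gave a log2 change of -0.41 ± 0.26 (adjusted p = 0.840), and the interaction was -0.65 ± 0.36 (adjusted p = 0.989).

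Hk1, the constitutive hexokinase, did not follow. It had means of 518 ± 63.6, 536 ± 18.8, 521 ± 56.2 and 490 ± 25.6 CPM in untreated, Dex, IL-1B and both (SD, n = 3), a log2 change of 0.01 ± 0.10 with IL-1B (adjusted p = 0.965). Hk2 thus made up 35.6 ± 3.85% of the Hk1 and Hk2 level per length in untreated cells and 39.0 ± 4.91% with Dex, but 60.7 ± 6.77% with IL-1B and 56.5 ± 3.96% with both. By library the share was 32.8% to 42.8% in the 6 libraries without IL-1B and 52.6% to 68.6% in the 6 with it, so the ranges did not overlap. The antisense gene Hk1os overlaps exons of Hk1.

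Phosphofructokinase, the committed step of glycolysis, has 3 genes, of which the muscle form Pfkm was lower with IL-1B. Pfkm (ENSMUSG00000033065, chromosome 15, 98092589 to 98132451, plus strand, GRCm38) read 37.0, 45.5 and 48.8 CPM in untreated 1, 2 and 3 and 45.9, 50.9 and 49.4 CPM with Dex. With IL-1B it read 33.4, 28.5 and 38.5 CPM, and with both 23.8, 34.2 and 35.4 CPM. The IL-1B group overlapped the untreated one, since IL-1B 3 was above untreated 1, and both agents together lay below both groups without IL-1B, with Dex+IL-1B 1 the lowest library. Pfkm fell with both agents, 0.714-fold relative to untreated cells (log2 -0.48 ± 0.15, adjusted p = 0.0399) and 0.642-fold relative to Dex (-0.64 ± 0.15, adjusted p = 0.0132). With IL-1B alone the change was -0.39 ± 0.15 (adjusted p = 0.0857). Without Dex+IL-1B 1 neither call held, at -0.33 (adjusted p = 0.132) and -0.47 (adjusted p = 0.0530), and the adjusted p over all alternatives ran from 0.0148 to 0.132 and from 0.00114 to 0.0575. Exons of Pfkm overlap those of Senp1 on the opposite strand and Gm26513 on the same strand.

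The liver and platelet forms were more abundant and moved less. Pfkl had means of 402 ± 26.6, 413 ± 15.4, 443 ± 40.8 and 469 ± 36.4 CPM and Pfkp 714 ± 136, 838 ± 58.6, 795 ± 57.9 and 751 ± 78.7 CPM in untreated, Dex, IL-1B and both (SD, n = 3). Neither passed the test, with log2 changes of 0.14 ± 0.09 and 0.15 ± 0.13 with IL-1B (adjusted p = 0.306 and 0.428). Per length, Pfkm was 10.3 ± 0.16% of the summed level of the 3 genes in untreated cells, 10.5 ± 0.65% with Dex, 7.38 ± 0.80% with IL-1B and 6.86 ± 1.27% with both. The share was 10.1% to 11.3% in the 6 libraries without IL-1B and 5.39% to 7.88% in the 6 with it, lowest in Dex+IL-1B 1. Its size depends on the annotated exon lengths, 3340 bases for Pfkm, 6675 for Pfkl and 13401 for Pfkp.

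The other 10 enzymes, Gpi1, Aldoa, Aldoc, Tpi1, Gapdh, Pgk1, Pgam1, Eno1 and Pkm with Hk1, did not pass the test in any comparison. With IL-1B their log2 changes ran from -0.06 for Gpi1, which isomerises glucose 6-phosphate, to 0.27 ± 0.10 for Pgk1, the first enzyme to make ATP (adjusted p = 0.0830). Pgk1 stood at 2246, 2621 and 2708 CPM in the untreated libraries and 2747, 3536 and 2840 CPM with IL-1B, a gap narrower than the spread within the IL-1B group. Eno1, which makes phosphoenolpyruvate, changed by 0.26 ± 0.10 with IL-1B (adjusted p = 0.0855), from 3138 ± 349 to 3761 ± 455 CPM (SD, n = 3). It read 3330, 4237 and 3716 CPM in IL-1B 1, 2 and 3. Dex gave log2 changes between 0.04 and 0.25 for all 14 enzymes, and their median was 0.11. All 14 were lowest of their group in untreated 1.

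**Figure D4:**
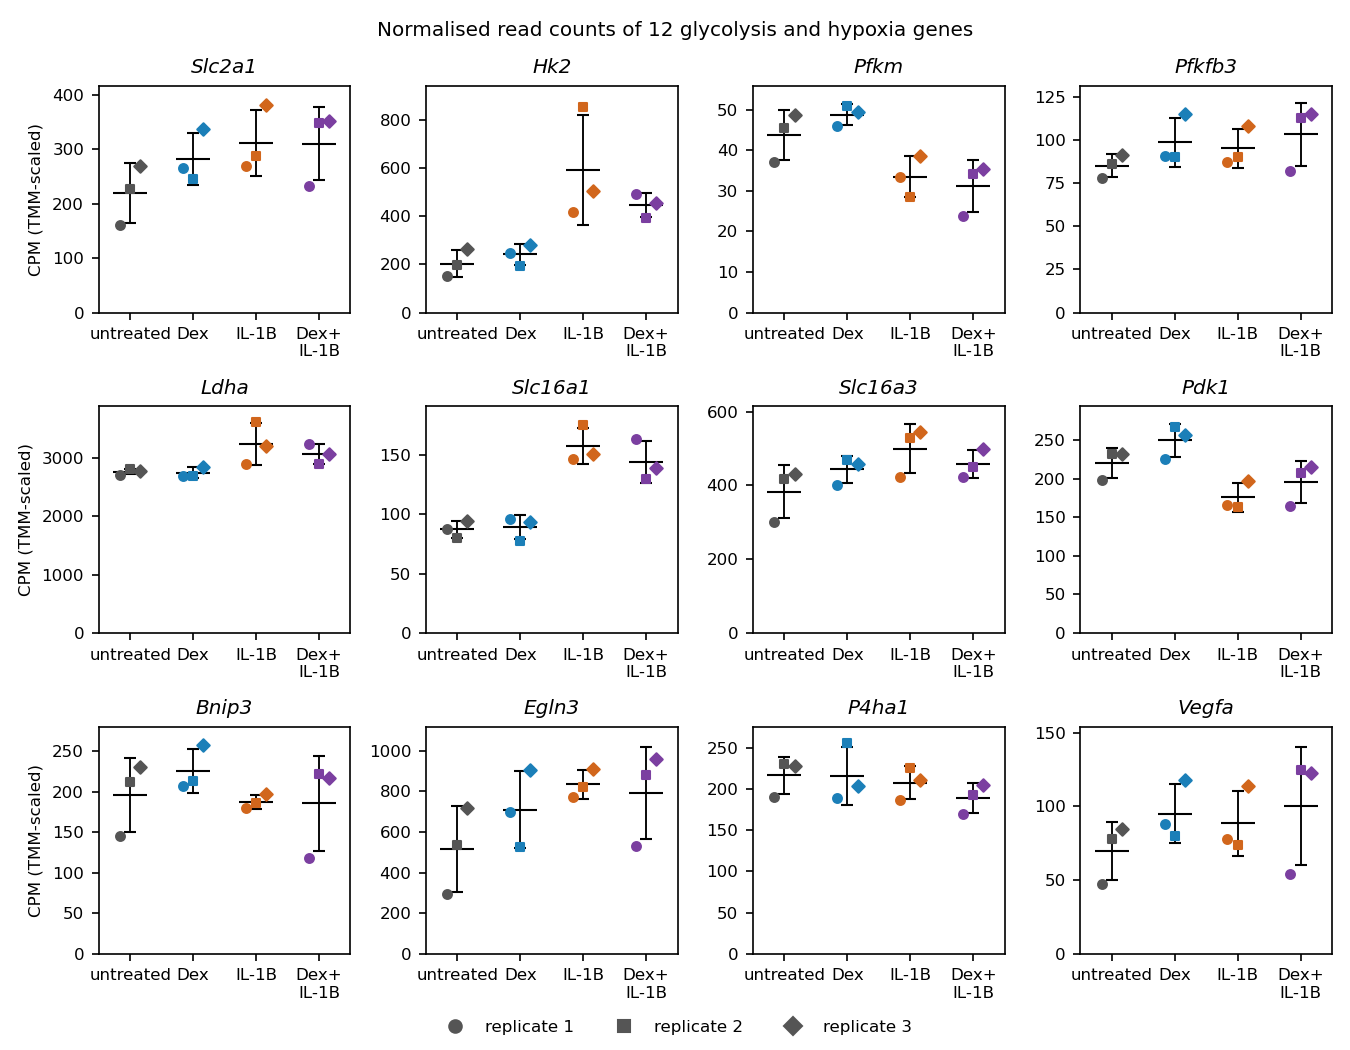
CPM of 12 genes in each library (points) by group (horizontal axis), with bars for the group mean ± SD, n = 3, and the vertical axis starting at 0. Hk2 and Slc16a1 show all 6 libraries with IL-1B above the other 6, and Ldha varies little, between 2692 and 3619 CPM.

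The pair of Pfkfb genes, whose enzymes make the fructose 2,6-bisphosphate that stimulates phosphofructokinase, did not pass the test. Pfkfb3, the form with high kinase activity, read 78.0, 86.3 and 91.4 CPM in untreated 1, 2 and 3, and 91.0, 90.2 and 115 CPM with Dex. It read 87.2, 90.3 and 108 CPM with IL-1B and 82.4, 113 and 115 CPM with both. All groups overlapped, and the log2 changes were 0.21 ± 0.14, 0.16 ± 0.14 and 0.28 ± 0.14 (adjusted p = 0.684, 0.440 and 0.175). Without Dex+IL-1B 1, the change with both agents was 0.42 (adjusted p = 0.0402). Pfkfb4 was scarce, at 13.6 ± 1.86, 14.7 ± 2.19, 10.5 ± 1.61 and 10.2 ± 3.61 CPM in untreated, Dex, IL-1B and both (SD, n = 3), with a change of -0.52 ± 0.23 for both against Dex (adjusted p = 0.150).

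Among the genes of lactate and pyruvate, IL-1B raised Slc16a1, the lactate and pyruvate carrier MCT1. Slc16a1 (ENSMUSG00000032902, chromosome 3, 104638668 to 104658462, plus strand, GRCm38) read 87.6, 79.8 and 94.8 CPM in untreated 1, 2 and 3 and 96.1, 77.4 and 93.8 CPM with Dex. It read 147, 175 and 151 CPM with IL-1B and 164, 130 and 139 CPM with both. All 6 libraries with IL-1B were above all 6 without it. The rise was 1.81-fold with IL-1B (log2 0.85 ± 0.12, adjusted p = 0.000525), 1.65-fold with both against untreated (0.72 ± 0.12, adjusted p = 0.00111) and 1.62-fold with both against Dex (0.70 ± 0.12, adjusted p = 0.00181). These calls held in every alternative run, with adjusted p up to 0.00513, 0.0106 and 0.00978. Dex changed Slc16a1 by 0.03 ± 0.12 (adjusted p = 0.973). Slc16a1 was not among the genes lowered in the libraries that stood apart, as untreated 1 lay between untreated 2 and 3 and Dex+IL-1B 1 was the highest of its group.

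The second carrier, Slc16a3 (MCT4, the low-affinity exporter of lactate), moved less. It read 301, 417 and 432 CPM in untreated 1, 2 and 3, and 402, 469 and 459 CPM with Dex. It read 424, 530 and 546 CPM with IL-1B and 424, 449 and 498 CPM with both. The groups overlapped, with untreated 1 the lowest library. The change with IL-1B was 0.38 ± 0.14 (adjusted p = 0.0609, with 0.0124 to 0.234 over the alternatives). Per length, Slc16a1 made up 21.8 ± 3.69% of the 2 carriers in untreated cells and 19.5 ± 2.90% with Dex, and 27.6 ± 2.35% with IL-1B and 27.6 ± 3.64% with both. These shares overlapped, since untreated 1 stood at 25.9% and IL-1B 3 at 25.0%.

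Ldha, the main subunit of the lactate dehydrogenase that reduces pyruvate, was even across libraries. It read 2718, 2811 and 2783 CPM in untreated 1, 2 and 3, and 2692, 2694 and 2856 CPM with Dex. It read 2908, 3619 and 3210 CPM with IL-1B and 3236, 2896 and 3065 CPM with both. All 6 libraries with IL-1B were above all 6 without it, yet by little. The change was 0.23 ± 0.09 with IL-1B (adjusted p = 0.0807) and 0.15 ± 0.09 with both (adjusted p = 0.283), and neither passed. Ldhb, the heart subunit, stood at 16.8 ± 2.40 CPM in untreated cells and 13.8 ± 1.41 CPM with IL-1B (SD, n = 3), a change of -0.28 ± 0.13 (adjusted p = 0.135). Ldhb was 1.26 ± 0.16% of the 2 subunits per length in untreated cells, 1.46 ± 0.06% with Dex, 0.889 ± 0.05% with IL-1B and 1.03 ± 0.17% with both.

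Pdk1, a kinase that inhibits the pyruvate dehydrogenase complex of the mitochondrion, was lower with IL-1B without passing the test. It read 199, 232 and 232 CPM in untreated 1, 2 and 3, and 226, 267 and 257 CPM with Dex. It read 167, 164 and 197 CPM with IL-1B and 165, 208 and 215 CPM with both. The 3 IL-1B libraries lay below all untreated ones, IL-1B 3 by a margin of under 2 CPM. The change was -0.33 ± 0.12 with IL-1B (adjusted p = 0.0594) and -0.35 ± 0.12 with both against Dex (adjusted p = 0.0631). The adjusted p ran from 0.0236 to 0.166 and from 0.0222 to 0.248 over the alternatives, and DESeq2 called both (0.0317 and 0.0286).

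The 3 genes of mitochondrial adaptation, Bnip3 and Bnip3l, receptors for the removal of mitochondria, and Higd1a, a factor of respiratory chain assembly, did not pass the test in any comparison. Bnip3 read 145, 212 and 230 CPM in untreated 1, 2 and 3, and 207, 213 and 257 CPM with Dex. It read 180, 186 and 197 CPM with IL-1B and 118, 222 and 217 CPM with both. The groups overlapped, and the lowest libraries were Dex+IL-1B 1 and untreated 1. The changes were 0.20 ± 0.22, -0.06 ± 0.22 and -0.07 ± 0.22 with Dex, IL-1B and both (adjusted p = 0.842, 0.872 and 0.854). Bnip3l stood at 229 ± 23.9, 278 ± 7.20, 230 ± 40.7 and 227 ± 47.3 CPM, and Higd1a at 102 ± 21.1, 115 ± 9.93, 115 ± 12.4 and 109 ± 16.8 CPM, in the same order of groups with untreated first (SD, n = 3).

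Egln3, the most strongly HIF-induced of the oxygen-sensing prolyl hydroxylases, was higher in every IL-1B library than in any untreated one but did not pass the test. It read 293, 538 and 716 CPM in untreated 1, 2 and 3, and 698, 527 and 907 CPM with Dex. It read 774, 820 and 913 CPM with IL-1B and 532, 882 and 959 CPM with both. The lowest IL-1B library was above the highest untreated one, and untreated 1 was the lowest library of the 12. The change with IL-1B was 0.70 ± 0.31 (adjusted p = 0.133), and 0.41 without untreated 1 (adjusted p = 0.319). Without untreated 3 it was 1.00 and was called (adjusted p = 0.0483), and over all alternatives the adjusted p ran from 0.0281 to 0.332. With both it was 0.62 ± 0.31 (adjusted p = 0.195), and 0.46 ± 0.31 with Dex (adjusted p = 0.700). Egln1, the main oxygen sensor, had means of 244 ± 49.3, 301 ± 28.3, 272 ± 24.2 and 279 ± 29.7 CPM in untreated, Dex, IL-1B and both (SD, n = 3). Its change with Dex was 0.30 ± 0.14 (edgeR adjusted p = 0.499).

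Of the genes of collagen hydroxylation and oxidative folding, Ero1l, an oxidase that forms disulfide bonds in the endoplasmic reticulum, had the largest difference. Its means were 226 ± 84.6, 318 ± 83.6, 432 ± 27.9 and 373 ± 133 CPM in untreated, Dex, IL-1B and both (SD, n = 3). All 3 IL-1B libraries, at 400 to 452 CPM, were above the untreated ones, at 138 to 306 CPM, and Dex+IL-1B 1 stood at 220 CPM. The change with IL-1B was 0.93 ± 0.32 (adjusted p = 0.0580), with 0.0160 to 0.186 over the alternatives and 0.67 without untreated 1 (adjusted p = 0.157). P4ha1, the main collagen prolyl hydroxylase, read 191, 232 and 229 CPM in untreated 1, 2 and 3, and 189, 256 and 205 CPM with Dex. It read 187, 227 and 212 CPM with IL-1B and 170, 194 and 206 CPM with both, and the groups overlapped. Its changes were -0.00 ± 0.12, -0.06 ± 0.12 and -0.20 ± 0.12 (adjusted p = 0.998, 0.775 and 0.310). P4ha2, a second such hydroxylase, was at 19.0 to 53.6 CPM in the 12 libraries and did not pass either.

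Vegfa, the angiogenic growth factor, followed the libraries more than the groups. It read 47.1, 77.6 and 84.4 CPM in untreated 1, 2 and 3, and 87.9, 79.6 and 118 CPM with Dex. It read 77.9, 74.0 and 114 CPM with IL-1B and 54.2, 124 and 123 CPM with both. The groups overlapped, and the lowest libraries were untreated 1 and Dex+IL-1B 1. The changes were 0.45 ± 0.32, 0.34 ± 0.32 and 0.53 ± 0.32 (adjusted p = 0.728, 0.486 and 0.289).

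Ankrd37, an ankyrin repeat protein known as a HIF target, was the hypoxia gene with the lowest log2 change with IL-1B, at -0.98 ± 0.37 (adjusted p = 0.0766). Its means were 12.1 ± 3.72 CPM in untreated cells and 6.12 ± 2.21 with IL-1B (SD, n = 3). The libraries did not overlap, but only narrowly, with IL-1B 1 at 8.045 and untreated 1 at 8.233 CPM. DESeq2 called Ankrd37 (adjusted p = 0.0241, with 0.0241 to 0.252 over the alternatives). Without IL-1B 2, at 3.70 CPM, the change was -0.72 (adjusted p = 0.249). Exons of Ankrd37 overlap those of Ufsp2 and Lrp2bp on the other strand. Ndrg1, a stress-induced differentiation factor, had the highest log2 change of the 36 with Dex, at 0.90 ± 0.40 (edgeR adjusted p = 0.497), and 0.58 without untreated 1, which stood at 35.9 CPM against 81.2 to 152 in the other untreated and Dex libraries. Mxi1, an antagonist of Myc, and Kdm3a, a histone demethylase, did not pass in any comparison, with log2 changes of 0.39 ± 0.27 and -0.26 ± 0.13 with IL-1B (adjusted p = 0.326 and 0.186).

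As lists, the glycolysis and hypoxia genes had medians that depended on the libraries that stood apart. With IL-1B against untreated, the median log2 change was 0.16 over the glycolysis genes and 0.17 over the hypoxia genes, against 0.00 over all tested genes, and it was 0.07 and -0.08 without untreated 1. With both against untreated the medians were 0.14 and 0.19. They were 0.04 and -0.06 without untreated 1, and 0.14 and 0.28 without Dex+IL-1B 1. With both against Dex they were 0.06 and -0.12, and 0.07 and 0.06 without Dex+IL-1B 1. With both against IL-1B they were -0.05 and 0.03, and 0.04 and 0.24 without Dex+IL-1B 1. No gene of the 36 was called in this last comparison by edgeR, DESeq2 or limma-voom, and 0 had an unadjusted p under 0.05, against 6.74% of tested genes.

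The interaction, which asks whether the effect of Dex differed with IL-1B present, was called for no gene of the 36 by edgeR, DESeq2 or limma-voom, and 0 of them had an unadjusted p under 0.05, against 3.09% of tested genes. Over all 13821 genes edgeR called 0 (0.0%), with 427 at an unadjusted p under 0.05, and DESeq2 called 1. The interaction was above 0 for 3 and below 0 for 33 of the 36 genes, against 50.2% of tested genes above 0, with a median of -0.21, from -0.70 for Ero1l to 0.51 for Ankrd37. That median was -0.05 without untreated 1 and -0.09 without Dex+IL-1B 1, and these libraries enter the interaction with the same sign.

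Further genes of the pathways, listed by role but with earlier results of these data known, were tested too. Of 25 other glycolytic genes 14 were tested, and with IL-1B 2 were called higher and 2 lower, against 11.9% and 9.51% of all tested genes, and 10 were not called. Slc2a6, a hexose transporter of the lysosome, rose 2.28-fold (log2 1.19 ± 0.24, adjusted p = 0.00444), from 22.9 ± 10.3 to 52.1 ± 4.95 CPM (SD, n = 3). Tigar, a phosphatase that lowers fructose 2,6-bisphosphate, rose 1.65-fold (0.72 ± 0.11, adjusted p = 0.00103), from 17.4 ± 0.17 to 28.7 ± 2.08 CPM. Slc2a9, a urate transporter of the glucose transporter family, fell 0.585-fold (-0.77 ± 0.12, adjusted p = 0.000961), and the bifunctional enzyme gene Pfkfb2 fell 0.648-fold (-0.63 ± 0.19, adjusted p = 0.0302, with 0.0121 to 0.108 over the alternatives). With both agents against untreated Tigar and Slc2a6 were called higher and Slc2a9 lower, at 0.75 ± 0.11, 1.01 ± 0.23 and -0.45 ± 0.12, against 18.2% of all tested genes called. The last 2 calls were lost in some alternatives, with edgeR adjusted p up to 0.0688 for Slc2a6 and 0.0793 for Slc2a9. With Dex alone edgeR called 0 of the 14, with 3 at an unadjusted p under 0.05, against 9.78% of all tested genes. DESeq2 called Slc2a6 lower with Dex (log2 -0.88, adjusted p = 0.0204).

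All 10 genes listed under the HIF pathway, among them the Arnt-like clock factor Arntl, were tested. With IL-1B against untreated edgeR called 1 higher and 0 lower, against 11.9% and 9.51% of all tested genes. With both agents against untreated it called 1 higher and 1 lower, against 18.2% in either direction. With Dex it called 0, against 0.535%. Hif1a, the main oxygen-regulated subunit, read 801, 780 and 757 CPM in untreated 1, 2 and 3, and 870, 848 and 859 CPM with Dex. It read 914, 1041 and 842 CPM with IL-1B and 968, 1009 and 990 CPM with both, so the untreated libraries were lowest. It rose 1.20-fold with IL-1B (0.26 ± 0.09, adjusted p = 0.0428, with 0.0155 to 0.147 over the alternatives) and 1.27-fold with both (0.34 ± 0.09, adjusted p = 0.0128, with 0.00110 to 0.0645). The call with IL-1B was lost in many alternatives, such as median-ratio scaling (edgeR adjusted p = 0.0501) and the compared groups alone (0.134). Untreated 1, which was low in the hypoxia genes, was the highest untreated library for Hif1a. Epas1, the second alpha subunit, was scarce and fell with both, from 2.06 ± 0.43 to 0.720 ± 0.41 CPM (-1.47 ± 0.43, adjusted p = 0.0291, with 0.00662 to 0.0946 over the alternatives). Arnt, the shared partner, was at 79.4 to 86.4 CPM in all 12 libraries. Neither Arnt nor Hif3a, Arnt2, Arntl, Vhl, Egln2, Hif1an and Cited2 was called against untreated cells in the main fit. Some alternatives with both agents called Arntl lower (DESeq2 adjusted p = 0.0372) and Vhl higher (edgeR adjusted p = 0.0476).

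Of 38 tested genes on the further list of hypoxia-induced genes, 0 were called higher and 3 lower with IL-1B, against 11.9% and 9.51% of all tested genes. Those were Plin2, a lipid droplet coat protein (-0.76 ± 0.13, adjusted p = 0.00159), Plod1, a collagen lysyl hydroxylase (-0.88 ± 0.16, adjusted p = 0.00249), and Narf (-0.44 ± 0.12, adjusted p = 0.0158, with 0.00351 to 0.0541 over the alternatives). With both agents against untreated the same 3 were lower, Plin2 at -1.29 ± 0.13 (adjusted p = 4.96e-05), and 2 were higher, the adenylate kinase gene Ak4 (0.73 ± 0.18, adjusted p = 0.0141) and, named after its value was seen, Dusp1 (0.43 ± 0.14, adjusted p = 0.0471). These 5 calls compare with 18.2% of all tested genes. Over the alternatives the edgeR adjusted p reached 0.187 for Dusp1, 0.127 for Narf and 0.0695 for Ak4, and each of these calls was lost in some of them. Other genes, named after their values were seen, gained a call as higher in some alternatives of the same comparison. DESeq2 called Bhlhe40 (adjusted p = 0.00681) and Adm (0.0387). Without Dex+IL-1B 1, edgeR called these and Hilpda, Jmjd6 and Ier3 (adjusted p of 0.0155 to 0.0474). With Dex alone edgeR called 0 of the 38, with 8 at an unadjusted p under 0.05 and 33 above 0, against 9.78% and 49.9% of all tested genes. The median with Dex was 0.28, and 0.14 without untreated 1.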

How the data were processed

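For the 12 libraries the authors deposited raw counts, as whole numbers per gene with no normalization. The submitters' processing notes list STAR 2.7.0a, HTSeq 0.6.1, DESeq2, GRCm38 and mm10, and give no role to any. Whether counting used the strand is not given in the sources used here, so overlapping genes cannot be told apart. Of 35275 identifiers, 34490 had a GENCODE vM21 name, and 0 lines named no gene.

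Counts were analysed in R 4.3.3 with edgeR 4.0.16: TMM scaling, the edgeR filter on group (13821 genes tested, 0.0562% of counts left out), and a robust quasi-likelihood one-way model over the 4 groups with 8 residual degrees of freedom. The 6 contrasts were the 5 comparisons between groups and the interaction. Benjamini-Hochberg adjustment ran over every gene tested in a contrast, and changes are log2 fold changes ± SE with n = 3 per group. RPKM uses the summed exon length. The scripts were tested on simulated data. Replicates all differed beyond sampling noise (chi-square per degree of freedom 4.26 to 48.8). Since the labels name no separate cultures or mice, the p-values reflect the spread among these libraries, which may be technical, and PCR copies of a molecule are counted as separate reads.

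The 36 genes and all gene lists were chosen with earlier results of these data known. By the rule for named genes, values in every library are given for genes called in at least 1 contrast and for Slc2a1, Hk2, Pfkfb3, Ldha, Slc16a3, Pdk1, Bnip3, Egln3, P4ha1 and Vegfa. From each further list up to 4 genes with the smallest adjusted p are named. Values of Hif1a, Pgk1, Pdk2 and Prps1 by library were added after they were seen. Alternatives were DESeq2 1.42.0, limma-voom (limma 3.58.1), median-ratio scaling, 2 other filters, a fit to the compared groups alone, a block for the replicate number, every library left out singly, and both libraries high in genes overlapping ribosomal RNA left out together. Same-numbered libraries were not taken as pairs.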

Additional observations from a re-analysis of the deposited data

How the results depend on the processing

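Over the alternatives, calls of single genes among the 36 were lost in 19 and gained in 34 of the gene, contrast and setting combinations, 4231 kept their side of the threshold, and 0 reversed while called. Slc16a1 kept its 3 calls, and Hk2 its call with IL-1B against untreated, in all of them. With no low-count filter the call of Hk2 with both against untreated was lost (adjusted p = 0.0512). With IL-1B against untreated, DESeq2 called 6 of the 36 genes, adding Slc16a3, Pdk1, Ero1l and Ankrd37. Leaving out 1 library gave 2 to 6 called and a median of 0.004 to 0.249 there, the lowest median without untreated 1, with 6 called without Dex+IL-1B 1, 5 without untreated 3 or IL-1B 1 and 4 without IL-1B 3. With both against untreated 2 to 4 were called, and with both against Dex 1 to 4, with 1 without Dex 2 or Dex+IL-1B 1. Over all genes, Dex against untreated had 74 calls, 271 with DESeq2, 138 with no low-count filter, 257 without both libraries high in genes overlapping ribosomal RNA, and 16 to 257 with 1 library left out (257 without Dex 2, 120 without IL-1B 2, 43 without Dex+IL-1B 3 and 16 to 18 without untreated 1, untreated 2, Dex 1 or Dex 3). Both against IL-1B had 38 calls, 98 with DESeq2, 18 in a fit to only the groups compared and 17 to 46 with 1 library left out (17 without IL-1B 1, 19 without IL-1B 3, and 20 without replicate 2 or 3 of the group given both agents). With 1 library left out, calls ran from 1555 (without untreated 2) to 3337 for IL-1B against untreated, from 1262 (without untreated 2; 1650 without Dex+IL-1B 3) to 3384 for both against untreated and from 915 (without Dex 2; 1051 without Dex+IL-1B 1, 1210 without Dex+IL-1B 3, 1239 without Dex 3) to 2597 for both against Dex. The interaction had 1 call with DESeq2. The cause of these moves was not tested.

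Replicate numbers were not taken to pair libraries: of 18 same-numbered pairs 5 had a correlation of deviations over 0.1 (-0.214 to 0.184), and 8 correlated best with their own number. With the replicate number as a block, 7 of the 36 were called with IL-1B against untreated, Slc2a1 (adjusted p = 0.0131) and Egln3 (0.0281) among them, and 0, 4, 0, 4 and 0 with Dex, both against untreated, both against IL-1B, both against Dex and the interaction, the 4 with both against untreated including Slc2a1 (0.016). Depth limits little here, since the fewest reads of any of the 36 genes in a library was 61.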

Other observations

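Pyruvate that is not reduced to lactate can enter the mitochondrion through the carrier of Mpc1 and Mpc2, and the pyruvate dehydrogenase complex acts on it there. Of the 13 genes listed for entry, the complex and its control, 12 were tested. With IL-1B against untreated 2 were called higher and 1 lower, against 11.9% and 9.51% of all tested genes. Dlat, the acetyltransferase subunit of the complex, rose 1.37-fold (log2 0.46 ± 0.10, edgeR adjusted p = 0.00497), from 61.4 ± 1.70 to 84.4 ± 10.9 CPM (SD, n = 3). Dld, the shared dehydrogenase subunit, rose 1.20-fold (0.27 ± 0.07, adjusted p = 0.0181), a call that was lost in some alternatives (adjusted p of 0.00280 to 0.102). Pdk2, a kinase that inhibits the complex, fell 0.420-fold (-1.25 ± 0.23, adjusted p = 0.00232), and read 6.77, 8.36 and 6.99 CPM in untreated 1, 2 and 3 against 3.07, 2.38 and 3.86 CPM with IL-1B, with no overlap. With both agents against untreated Pdk2 was at -0.96 ± 0.22 (adjusted p = 0.00901) and Dlat at 0.32 ± 0.10 (adjusted p = 0.0310, with 0.00543 to 0.0958 over the alternatives). No gene of this list was called with Dex alone by edgeR, with 1 at an unadjusted p under 0.05, against 9.78% of all tested genes.

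The pentose phosphate pathway branches from glycolysis at glucose 6-phosphate and makes ribose and NADPH, and all 11 listed genes were tested. Prps1, which activates ribose 5-phosphate for nucleotide synthesis, was called in 4 of the 5 comparisons between groups. It read 75.6, 78.7 and 82.0 CPM in untreated 1, 2 and 3 and 107, 112 and 107 CPM with Dex. It read 121, 106 and 109 CPM with IL-1B and 150, 132 and 141 CPM with both. All 9 treated libraries were above the untreated ones, and those with both agents were above all others. The log2 change was 0.47 ± 0.08 with Dex (adjusted p = 0.0193, with 2.19e-05 to 0.127 over the alternatives), 0.51 ± 0.08 with IL-1B (adjusted p = 0.00119) and 0.84 ± 0.08 with both (adjusted p = 3.47e-05). Rpia, which makes ribose 5-phosphate, rose 1.49-fold with IL-1B (0.57 ± 0.09, adjusted p = 0.00139), and Tkt, a transketolase, 1.28-fold (0.35 ± 0.10, adjusted p = 0.0187, with 0.00391 to 0.0794 over the alternatives). The other 8 genes of the list were not called with IL-1B, where 11.9% of all tested genes were called higher.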
